A study of Mus musculus with 8 samples.

Results

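The chemokine and cytokine genes Ccl2, Ccl3, Ccl4, Ccl5, Ccl6, Ccl7, Ccl9, Ccl12, Ccl19, Ccl24, Cxcl1, Cxcl2, Cxcl3, Cxcl5, Cxcl9, Cxcl10, Cxcl13, Cxcl14, Cxcl16, Cx3cl1, Pf4, Ppbp, Il1a, Il1b, Il1rn, Il4, Il6, Il10, Il13, Il15, Il18, Il33, Tnf, Tnfsf9, Tgfb1, Osm and Lif were followed across the cells of the adult mouse tibia. They are 37 of the 31053 genes in the matrix and were taken as a list of names, which was drawn up with earlier results of these data known. Single-cell transcripts were counted in untreated tibiae at 8 weeks (P56) of mice that carried 1 floxed allele of MMP14 (MMP14 F/+) together with COL10A1cre, the reporter R26-tdT and the transgene Col1a1-2.3-GFP, in all samples alike. COL10A1cre acts in hypertrophic chondrocytes and turns on the tdTomato reporter of R26-tdT in them and their descendants, and the 2.3 kb Col1a1 promoter drives GFP in osteoblasts. The suspension came from 3 mice, and neither the mouse nor any of the 8 samples that the labels name can be read from a barcode. There are therefore no replicates and no test between groups was possible, and every interval below is a 95% interval that covers counting error only.

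Chemokines are small secreted proteins that guide blood cells along a gradient through G protein-coupled receptors, and they are grouped by the spacing of their first cysteines into the CC, CXC and CX3C families. Cytokines of the interleukin 1, tumour necrosis factor, interleukin 6 and type 2 families carry signals for inflammation, survival and differentiation between blood cells, marrow stroma, cartilage and bone. In bone marrow, stromal cells keep blood cells in place with chemokines, and cytokines of the interleukin 6 family act on osteoblasts and their precursors.

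The source of each transcript was read from 12 gates, each set on raw counts of unique molecular identifiers (UMIs) of 1 or 2 marker genes in barcodes with at least 800 genes. This floor kept 9314 of 12564 barcodes and 75684188 of 91463572 UMIs, with 1305 to 103543 UMIs per kept barcode and a median of 5637. The blood gates were Ccr2 (845 barcodes, Ccr2 seen and S100a8 below 100 per 10000 UMIs, monocytes), C1q (92 barcodes, macrophages), Cxcr2 (1398 barcodes, mature neutrophils), Ltf (1778 barcodes, immature neutrophils), Mcpt8 (93 barcodes, basophils or mast cells), Cd3e (121 barcodes, T cells) and Cd79a (3043 barcodes, B cells). The skeletal and vessel gates were Col2a1 (358 barcodes, chondrocytes), Bglap (58 barcodes, osteoblasts), Lepr/Adipoq (50 barcodes, marrow stroma), Dcn/Col3a1 (173 barcodes, set for fibroblasts or tendon cells) and Cdh5 (98 barcodes, endothelium). The labels call the cells chondro-osteogenic, whereas most gated barcodes were blood cells.

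Every gene of a cell type's marker list was raised at least 4-fold in its gate for 11 of 12 gates, although the immature neutrophil list holds the gating gene Ltf itself, and the exception was the monocyte list of the Ccr2 gate, where Ly6c2 and Fn1 were under 4-fold and 4 of 6 genes were past it. Other cell types were also present within gates. The Cdh5 gate held Siglech, a gene of plasmacytoid dendritic cells, in 34 of 98 barcodes, the Lepr/Adipoq gate held the basophil gene Prss34 in 2 of 50 barcodes, and the Bglap gate held the chondrocyte gene Acan in 23 of 58 barcodes. The skeletal gates were mixed with each other. In the Dcn/Col3a1 gate the osteoblast list summed to 25510 CPM and the chondrocyte list to 7319, above its own fibroblast or tendon list at 1771, and 47 of its 173 barcodes also met the Col2a1 gate and 12 the Bglap gate, so it is called by its genes below. In the Lepr/Adipoq gate the osteoblast list stood at 11650 CPM and the chondrocyte list at 2307, beside 9951 for the marrow stroma list, and the chondrocyte gene Comp was in 27 of 50 barcodes. Of the 58 Bglap barcodes 26 also met the Col2a1 gate and 19 met no other gate. In the Cd3e gate the osteoblast list summed to 7269 CPM and the immature neutrophil list to 4247, above its T cell list at 2293, and in the Cdh5 gate the immature neutrophil list summed to 12500 CPM, above its endothelial list at 2529, with S100a8 and S100a9 at 23340. In Cd79a the immature neutrophil list (6608) also exceeded the B cell list (4284), and in Cxcr2 it (71400) exceeded the mature neutrophil list (19000). The erythroid list was between 7491 CPM in Cdh5 and 28540 in Cd79a in the blood and vessel gates. The cell type names below therefore stand for gates and not for pure cells. In all, 1139 barcodes met 2 or more gates, 713 of them both Cxcr2 and Ltf, and 2418 barcodes (25.96%) met none. No doublet caller was run, and barcodes of several gates were kept and left out in an alternative. Their part in the levels below was not tested beyond that.

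Upstream sequence was available for 26 of the 37 members, in RefSeq windows of 250 bases before the transcript start (build GRCm38.p6). A match to the NF-kB consensus motif, read on both strands, was found in 6 of these members and in 3.90% of all 32851 windows. AP-1 sites (TGANTCA) were found in 7 members, against 6.75% of windows, and TATAAA in 13 members, against 12.4%. A match is a description of letters and not of binding. The last 160 upstream bases of the 6 members with the NF-kB motif are shown because they include the most abundant member, Cxcl2, and its neighbours Cxcl1 and Cxcl3, whose levels are compared below. Capitals mark the motif.
Cxcl1, chr5:90891085-90891244, plus strand: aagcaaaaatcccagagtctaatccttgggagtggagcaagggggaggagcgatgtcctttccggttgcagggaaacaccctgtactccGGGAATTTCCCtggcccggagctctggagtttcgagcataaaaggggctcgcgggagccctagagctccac
Cxcl2, chr5:90903739-90903898, plus strand: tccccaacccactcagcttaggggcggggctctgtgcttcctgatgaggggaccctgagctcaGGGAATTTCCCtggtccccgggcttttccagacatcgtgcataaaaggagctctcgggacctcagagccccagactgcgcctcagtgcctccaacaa
Cxcl3, chr5:90785941-90786100, plus strand: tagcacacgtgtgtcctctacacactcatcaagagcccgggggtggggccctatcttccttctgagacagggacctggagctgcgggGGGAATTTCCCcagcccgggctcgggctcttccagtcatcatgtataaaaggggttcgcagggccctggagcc
Cxcl10, chr5:92348890-92349049, minus strand: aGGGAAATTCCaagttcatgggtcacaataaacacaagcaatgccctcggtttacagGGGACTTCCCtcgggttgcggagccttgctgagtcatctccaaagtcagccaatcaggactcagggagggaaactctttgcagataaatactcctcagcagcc
Ccl9, chr11:83578637-83578796, minus strand: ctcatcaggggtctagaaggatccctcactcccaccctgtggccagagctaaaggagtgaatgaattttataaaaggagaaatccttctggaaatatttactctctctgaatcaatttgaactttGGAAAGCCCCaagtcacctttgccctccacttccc
Il6, chr5:30012954-30013113, plus strand: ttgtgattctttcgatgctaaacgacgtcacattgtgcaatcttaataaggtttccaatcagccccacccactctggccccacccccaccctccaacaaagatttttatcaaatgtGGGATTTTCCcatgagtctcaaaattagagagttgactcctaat
The capitals of Cxcl1, Cxcl2 and Cxcl3 are the same letters, where 2 overlapping matches lie. They begin 71, 97 and 73 bases before the RefSeq starts. The Cxcl2 stretch ends at 90903898, past the GENCODE start of Cxcl2 given below (90903871), so these distances depend on the annotation. Over 250 bases the upstream sequences of Cxcl1 and Cxcl2 were 54.1% identical, those of Cxcl1 and Cxcl3 54.9%, and those of Cxcl2 and Cxcl3 59.8%.

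The members together held 230747 UMIs in the kept barcodes, or 3049 counts per 1000000 UMIs (CPM). Cxcl2 alone held 44.7% of them, Il1b 12.5%, Tgfb1 5.10%, Tnf 4.63% and Ccl6 4.40%. Summed over members, the level was highest in the C1q gate at 9400 CPM, followed by the Ccr2 gate at 8515 and the Mcpt8 gate at 8041. It was 5653 in the Cxcr2 gate, 3870 in Cd3e, 2977 in Lepr/Adipoq, 1837 in Cdh5, 1333 in Ltf, 1267 in Dcn/Col3a1 and 1026 in Cd79a. The 2 lowest sums were in cartilage and bone cells, with 793 in Col2a1 and 732 in Bglap. In barcodes of exactly 1 gate the order changed, with the Cxcr2 gate highest at 14080 CPM, before Mcpt8 at 10250, C1q at 10050 and Ccr2 at 9099. There Lepr/Adipoq stood at 5316, Dcn/Col3a1 at 803, Col2a1 at 632, and the 2 lowest were Cd79a at 526 and Bglap at 273 from 19 barcodes. A list of 13 immediate-early and heat-shock genes, which respond within minutes to handling of cells, varied across the same gates between 1869 CPM in Ltf and 9879 in C1q. It stood at 9523 in Col2a1, where the member sum was low, at 8622 in Lepr/Adipoq, 7489 in Ccr2, 3839 in Cxcr2, 3715 in Mcpt8 and 2712 in Cd3e, and its part in the member levels was not tested.

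**Figure D1:**
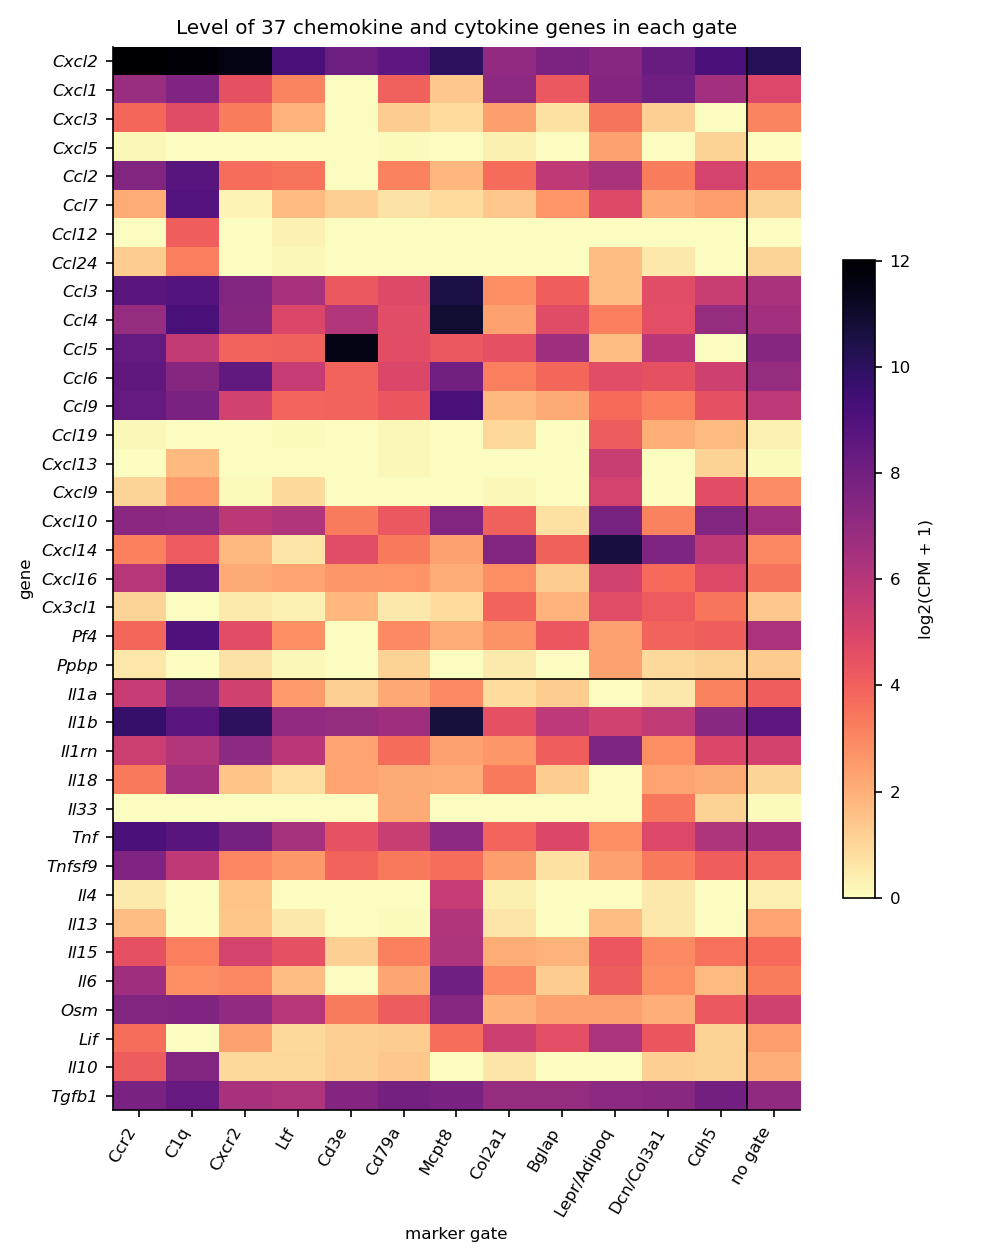
Level of each gene (rows) in each gate and in the barcodes of no gate (columns), as log2(CPM + 1), with chemokines above the line and cytokines below it. Cxcl2 is dark in the Ccr2, C1q and Cxcr2 columns, Ccl5 in Cd3e, Ccl3, Ccl4 and Il1b in Mcpt8 and Cxcl14 in Lepr/Adipoq, while Tgfb1 varies least across the columns.

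A member was counted as past the fold in a gate where its CPM was at least 4 times that in all other kept barcodes, with the latter raised to at least 3 UMIs. At least 20 UMIs were asked of a gene, which 35 of the 37 members and 14824 genes in all met. Of the 35 members, 32 were past the fold in at least 1 gate, 15 of them in 1 gate and 17 in 2 or more. Ccl6, Cxcl10 and Tgfb1 were past it in none, although in barcodes of exactly 1 gate Cxcl10 was past it in Ccr2, C1q and Lepr/Adipoq and Ccl6 in Cxcr2. Ccl12 with 13 UMIs and Cxcl5 with 6 UMIs were too rare to be compared. Where a member is at 0 in a gate below, the limit that a count of 0 allows (3 UMIs) is 3.82 CPM in Cd3e, 3.58 in C1q, 3.35 in Cdh5, 6.19 in Lepr/Adipoq, 2.47 in Mcpt8 and 2.01 in Bglap.

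Macrophage and monocyte barcodes had the longest lists. In the C1q gate 12 members were past the fold, against 5.69% of all genes, namely Ccl2, Ccl4, Ccl7, Ccl24, Cxcl1, Cxcl3, Cxcl13, Cxcl16, Pf4, Il1a, Il10 and Il18. In the Ccr2 gate it was 10, against 2.58% of all genes, namely Ccl2, Ccl3, Ccl9, Cxcl2, Cxcl16, Il6, Il10, Tnf, Tnfsf9 and Osm. The Mcpt8 gate had 8, against 2.64%, namely Ccl3, Ccl4, Ccl9, Il1b, Il4, Il6, Il13 and Il15. With the highest other gate as the reference, each without the barcodes that also meet the gate compared, 6 members stayed past 4-fold in C1q (Ccl7, Cxcl16, Pf4, Il1a, Il10 and Il18), 2 in Mcpt8 (Il4 and Il13) and 1 in Ccr2 (Tnfsf9). Of neutrophil gates, Cxcr2 had 1 member past the fold, Il1rn, against 1.35% of all genes, and Ltf had 0 against 2.08%. Among barcodes that met exactly 1 gate the Cxcr2 count was 8, with Ccl6, Cxcl2, Cxcl3, Pf4, Il1a, Il1b and Osm beside Il1rn. Lymphocytes had 1 each, Ccl5 in Cd3e (3.68% of all genes) and Il33 in Cd79a (3.82%).

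Marrow stroma had the longest list of the skeletal gates. In Lepr/Adipoq 9 members were past the fold, against 14.9% of all genes, namely Ccl7, Ccl19, Cxcl9, Cxcl13, Cxcl14, Cx3cl1, Ppbp, Il1rn and Lif. Dcn/Col3a1 had 5, Ccl19, Cxcl1, Cxcl14, Cx3cl1 and Il33, against 12.6%, of which Cxcl1 and Il33 alone stayed past it in the 93 barcodes of no other gate. The Col2a1 gate had 3, Cxcl14, Cx3cl1 and Lif, against 14.9%, and Bglap had 0 against 8.88%. In Cdh5 there were 3, Ccl19, Cxcl9 and Cx3cl1, against 9.77%. The shares of members called in Ltf, Cd3e, Cd79a, Col2a1, Bglap, Dcn/Col3a1 and Cdh5 were near or below those of all genes, so these counts are not results about the members. Some calls rested on very few UMIs, with 2 UMIs each behind Ccl19 in Cdh5, Cxcl13 in C1q and Ppbp in Lepr/Adipoq. Without the barcode that held most UMIs of a gene, the Lepr/Adipoq gate had 5 members past the fold, Ccl19, Cxcl9, Cxcl13, Cxcl14 and Cx3cl1, a share that is also near that of all genes, and the Cdh5 gate had 0.

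**Figure D2:**
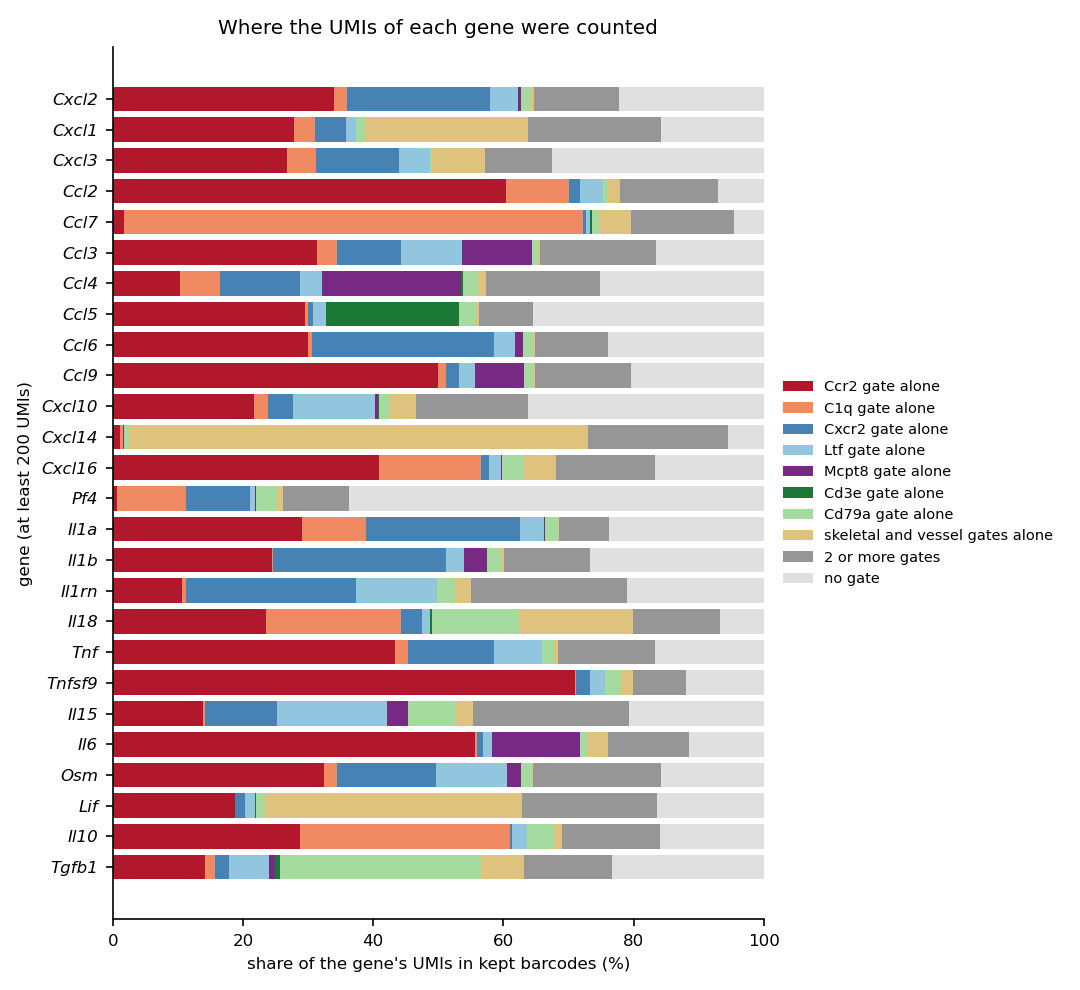
Share of each gene's UMIs in kept barcodes (x axis, percent) that was counted in barcodes meeting 1 gate alone, several gates or none, for the 26 genes with at least 200 UMIs. Tnfsf9 is mostly in Ccr2 barcodes (71.05%), Ccl7 in C1q barcodes (70.6%) and Pf4 in barcodes of no gate (63.7%).

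The neutrophil-attracting CXC chemokines Cxcl1, Cxcl2, Cxcl3 and Cxcl5 are ligands of the receptor Cxcr2. Cxcl2 was highest in monocytes, macrophages and mature neutrophils and was seen in every gate. Cxcl2 stood at 4152 CPM in the Ccr2 gate, 3807 in C1q, 3064 in Cxcr2, 591 in Ltf and 1019 in Mcpt8. Cxcl2 was at 275 CPM in Cd3e, 393 in Cd79a, 131 in Col2a1, 203 in Bglap, 163 in Lepr/Adipoq, 297 in Dcn/Col3a1 and 588 in Cdh5. Mature neutrophils led in barcodes of exactly 1 gate, with 8067 CPM in Cxcr2 against 4545 in Ccr2, and with each barcode weighing the same, with 6103 against 5234. The 3 highest gates lay within a factor of 2 of each other and the lowest, chondrocytes, lay 4.985 log2 units below monocytes. Cxcl2 was also counted in B cell barcodes, which were taken as background, and whether B cells express it was not tested. Among the 2803 Cd79a barcodes of no other gate, 12.7% held a Cxcl2 UMI at a median depth of 3046 UMIs, against 72.7% of Ccr2 barcodes at a median of 8313. Thinned to 1000 UMIs each, which all kept barcodes reached, the shares were 4.55% and 57.8%, with 65.6% in C1q and 52.5% in Cxcr2.

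Cxcl1 had another order from its neighbour Cxcl2, with the Dcn/Col3a1 gate, macrophages and marrow stroma leading. Cxcl1 stood at 113 CPM in the Ccr2 gate, 191 in C1q, 21.55 in Cxcr2, 7.55 in Ltf and 1.65 in Mcpt8. Cxcl1 was at 0 CPM in Cd3e, 15.3 in Cd79a, 141 in Col2a1, 18.1 in Bglap, 173 in Lepr/Adipoq, 262.5 in Dcn/Col3a1 and 93.8 in Cdh5. In the Dcn/Col3a1 gate 1 barcode held 42.3% of its 603 UMIs, and without that barcode the level was 155 CPM, beside 157 in the C1q gate without its own top barcode. In chondrocytes Cxcl1 was spread over 107 of 358 barcodes. Cxcl3 was rare. Cxcl3 stood at 13.4 CPM in the Ccr2 gate, 25.1 in C1q, 8.7 in Cxcr2, 2.75 in Ltf and 0.823 in Mcpt8. Cxcl3 was at 0 CPM in Cd3e, 1.36 in Cd79a, 4.41 in Col2a1, 0.671 in Bglap, 10.3 in Lepr/Adipoq, 1.31 in Dcn/Col3a1 and 0 in Cdh5. Of its 21 UMIs in macrophages 61.9% were in 1 barcode, and without it the level was 9.66 CPM. Cxcl5 had 6 UMIs in all. The reads of these closely related genes may be shared in part, which the deposited counts do not show. Of their receptors, Cxcr1 was past the fold in the Cxcr2 gate at 1.58 CPM (16 of its 22 UMIs), and Cxcr2 itself defines that gate.

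The CC chemokines Ccl2, Ccl7 and Ccl12 attract monocytes through Ccr2. Macrophages led for Ccl2 and Ccl7, and Ccl12 was too rare to be compared. Ccl2 stood at 183 CPM in the Ccr2 gate, 438 in C1q, 11.6 in Cxcr2, 10.4 in Ltf and 2.47 in Mcpt8. Ccl2 was at 0 CPM in Cd3e, 7.59 in Cd79a, 12 in Col2a1, 53 in Bglap, 80.5 in Lepr/Adipoq, 8.71 in Dcn/Col3a1 and 33.5 in Cdh5. Ccl2 was high in both monocytes and macrophages and over 2 times higher in the latter (log2 ratio of Ccr2 over C1q -1.33, -1.51 to -1.14). Seen per UMI and not per level, 60.3% of Ccl2 UMIs came from Ccr2 barcodes of no other gate. The level in osteoblasts rested on 1 barcode with 98.7% of its 79 UMIs. Ccl7 stood at 3.26 CPM in the Ccr2 gate, 459 in C1q, 0.198 in Cxcr2, 2.23 in Ltf and 0.823 in Mcpt8. Ccl7 was at 1.27 CPM in Cd3e, 0.623 in Cd79a, 1.65 in Col2a1, 5.37 in Bglap, 26.8 in Lepr/Adipoq, 3.48 in Dcn/Col3a1 and 4.47 in Cdh5. Ccl7 stood 8.78 log2 units higher in the C1q gate than in all other barcodes (8.43 to 9.15), the widest such gap of any member with at least 200 UMIs. It was seen in 28 of 92 C1q barcodes. The barcode with most UMIs held 10.4% of them. Ccl12 had 13 UMIs, all of them in 5 C1q barcodes. The eotaxin Ccl24, a ligand of Ccr3, was at 8.36 CPM in C1q with 7 UMIs (4.245 log2 units above the rest, 2.82 to 5.45), and 55.0% of its 40 UMIs were in a single barcode of no gate. Its receptor Ccr3 was past the fold in the same gate at 90.8 CPM against 0.2405 outside, in 29 of 92 barcodes.

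Ccl3, Ccl4 and Ccl5 are inflammatory CC chemokines that attract monocytes and T cells, and Ccl3 is a ligand of Ccr1. Basophils led for Ccl3 and Ccl4 and T cells for Ccl5. Ccl3 stood at 399 CPM in the Ccr2 gate, 454 in C1q, 185 in Cxcr2, 85.3 in Ltf and 1459 in Mcpt8. Ccl3 was at 17.8 CPM in Cd3e, 26.7 in Cd79a, 6.06 in Col2a1, 15.4 in Bglap, 2.06 in Lepr/Adipoq, 24.4 in Dcn/Col3a1 and 43.5 in Cdh5. Ccl4 stood at 121 CPM in the Ccr2 gate, 576 in C1q, 167 in Cxcr2, 29 in Ltf and 1853 in Mcpt8. Ccl4 was at 67.4 CPM in Cd3e, 24.3 in Cd79a, 3.99 in Col2a1, 25.5 in Bglap, 8.25 in Lepr/Adipoq, 23.1 in Dcn/Col3a1 and 122 in Cdh5. Ccl4 was over 3 times higher in basophils than in macrophages, the next gate. Both genes were found in most basophil barcodes, Ccl3 in 77 and Ccl4 in 66 of 93, and 61 held both. With a floor of 1600 genes, which 64 Mcpt8 barcodes met, Ccl4 fell from 1853 to 496 CPM and Ccl3 from 1459 to 863, so that macrophages then led for Ccl4. Ccl5 stood at 336 CPM in the Ccr2 gate, 47.8 in C1q, 14 in Cxcr2, 15.3 in Ltf and 18.1 in Mcpt8. Ccl5 was at 3093 CPM in Cd3e, 23.95 in Cd79a, 22 in Col2a1, 101 in Bglap, 2.06 in Lepr/Adipoq, 57.5 in Dcn/Col3a1 and 0 in Cdh5. Ccl5 was 9.21 times higher in T cells than in the second gate, monocytes. In monocytes it was unevenly spread, in 85 of 845 barcodes, 18 Ccr2 barcodes also met the Cd3e gate, and the summed NK cell list stood at 191 CPM in the Ccr2 gate and 207 in the Cd3e gate.

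Barcodes of no gate held 35.4% of Ccl5 UMIs. Of these, 67 barcodes with at least 3 UMIs of NK cell genes held 75.9% and had 6503 CPM of Ccl5, against 41.3 in the other 2351. The levels of Ccl5 in osteoblasts and in Dcn/Col3a1 barcodes rested on 4 and 5 barcodes. Of the receptors, Ccr1 was past the fold in mature neutrophils (235 CPM against 45.7 outside).

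Ccl6 and Ccl9 are rodent CC chemokines that act on Ccr1. Ccl6 was shared between monocytes and mature neutrophils. Ccl6 stood at 361 CPM in the Ccr2 gate, 166 in C1q, 355 in Cxcr2, 45.15 in Ltf and 259 in Mcpt8. Ccl6 was at 14 CPM in Cd3e, 28.65 in Cd79a, 8.26 in Col2a1, 13.4 in Bglap, 24.8 in Lepr/Adipoq, 21.3 in Dcn/Col3a1 and 38 in Cdh5. Its levels in the Ccr2 and Cxcr2 gates differed by a factor of 1.02, and in barcodes of exactly 1 gate it stood at 1009 CPM in Cxcr2 against 394 in Ccr2. Ccl9 stood at 337 CPM in the Ccr2 gate, 208 in C1q, 36 in Cxcr2, 13.45 in Ltf and 593 in Mcpt8. Ccl9 was at 14 CPM in Cd3e, 19.6 in Cd79a, 2.34 in Col2a1, 3.355 in Bglap, 12.4 in Lepr/Adipoq, 8.27 in Dcn/Col3a1 and 22.3 in Cdh5. Ccl9 instead was low in neutrophils and highest in basophils, then monocytes. With a floor of 1600 genes its level in basophils fell from 593 to 342 CPM, which was still the highest of the gates. It was seen in 647 of 845 monocyte barcodes and 70 of 93 basophil barcodes. Ccr2 and Mcpt8 shared 27 barcodes, and without these 9 members were past the fold in the Ccr2 gate in place of 10.

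Of the chemokines that act on lymphocytes, Ccl19, Cxcl9, Cxcl10 and Cxcl13 had their highest level in marrow stroma, from few barcodes. Ccl19, a ligand of Ccr7, was rare, with 25 UMIs in 22 barcodes and its highest level in marrow stroma at 16.5 CPM (8 UMIs in 6 barcodes). A second gene of that name, on a scaffold, had 0 UMIs. Cxcl13, the ligand of Cxcr5, reached 43.3 CPM in marrow stroma, but 90.5% of its 21 UMIs there were in 1 of 2 barcodes. Cxcl9 and Cxcl10 are interferon-induced ligands of Cxcr3. Cxcl9 was at 33.0 CPM in marrow stroma (16 UMIs in 5 barcodes) and at 10.6 CPM without the barcode that held most of them, and 70.8% of its UMIs lay in barcodes of no gate. Cxcl10 stood at 150.4 CPM in the Ccr2 gate, 143 in C1q, 56.6 in Cxcr2, 68.7 in Ltf and 179 in Mcpt8. Cxcl10 was at 8.9 CPM in Cd3e, 18 in Cd79a, 15.4 in Col2a1, 0.671 in Bglap, 225 in Lepr/Adipoq, 7.84 in Dcn/Col3a1 and 184 in Cdh5. Cxcl10 was found in 203 monocyte barcodes, whereas in marrow stroma 77.1% of its 109 UMIs and in endothelium 70.3% of its 165 UMIs were in 1 barcode each. Without its top barcode the level in marrow stroma was 52.5 CPM and monocytes led with 142. The receptors were on lymphocytes, with Cxcr3 at 35.6 CPM in T cells (0.5875 outside), Ccr7 at 258 in T cells and 133 in B cells, and Cxcr5 at 25.25 in B cells (1.41 outside).

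Cxcl14 is a chemokine of skin and connective tissue, and marrow stroma led for it. Cxcl14 stood at 8 CPM in the Ccr2 gate, 16.7 in C1q, 2.37 in Cxcr2, 0.572 in Ltf and 4.115 in Mcpt8. Cxcl14 was at 24.2 CPM in Cd3e, 9.29 in Cd79a, 187.5 in Col2a1, 14.8 in Bglap, 1576 in Lepr/Adipoq, 198.5 in Dcn/Col3a1 and 52.5 in Cdh5. Marrow stroma exceeded the second gate by a factor of 7.94, and 33 of 50 Lepr/Adipoq barcodes held Cxcl14, against 162 of 358 chondrocyte and 66 of 173 Dcn/Col3a1 barcodes. Thinned to 1000 UMIs the shares were 50.1%, 15.2% and 12.9%, against 0.167% of Cd79a barcodes of no other gate. Osteoblasts had few, with 4 of 58 barcodes. Of all Cxcl14 UMIs, 42.4% were in Col2a1 barcodes of no other gate and 23.3% in such Lepr/Adipoq barcodes.

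Cxcl16 is a transmembrane chemokine that binds Cxcr6. Cxcl16 stood at 64.7 CPM in the Ccr2 gate, 351 in C1q, 3.36 in Cxcr2, 3.89 in Ltf and 3.29 in Mcpt8. Cxcl16 was at 5.09 CPM in Cd3e, 5.38 in Cd79a, 6.06 in Col2a1, 1.34 in Bglap, 35.1 in Lepr/Adipoq, 12.2 in Dcn/Col3a1 and 26.8 in Cdh5. Macrophages led by a factor of 5.425, with 66 of 92 barcodes positive, and monocytes followed. Its receptor Cxcr6 was at 61.05 CPM in T cells against 0.534 outside. Cx3cl1, the ligand of Cx3cr1, had 175 UMIs and stood at 24.8 CPM in marrow stroma (12 UMIs). It was past the fold in 4 gates, the most of any member, and all were skeletal or vessel gates. In these gates 9.77% to 14.9% of all genes were past it. The Dcn/Col3a1 call was lost in barcodes of exactly 1 gate, and the Cdh5 call without the barcode that held most Cx3cl1 UMIs. No Cx3cl1 UMI was seen in C1q barcodes, where 3 UMIs would be 3.58 CPM. Its receptor Cx3cr1 was the reverse, at 118 CPM in macrophages and 38.6 in monocytes.

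Pf4 and Ppbp are platelet alpha-granule chemokines. Pf4 stood at 13.2 CPM in the Ccr2 gate, 523 in C1q, 23.9 in Cxcr2, 5.95 in Ltf and 3.29 in Mcpt8. Pf4 was at 0 CPM in Cd3e, 6.625 in Cd79a, 5.65 in Col2a1, 18.8 in Bglap, 4.13 in Lepr/Adipoq, 14.4 in Dcn/Col3a1 and 15.6 in Cdh5. Macrophages had the highest level, in 53 of 92 barcodes. The list of 10 platelet and megakaryocyte genes, Pf4 and Ppbp not among them, summed to 3 UMIs (3.58 CPM) in these macrophages, and 1 of the 53 barcodes with Pf4 held a UMI of it. Ppbp was not seen in the C1q gate. Outside the gates the picture differed. Barcodes of no gate held 1492 of the 2343 Pf4 UMIs, and 30 of the 62 such barcodes with Pf4 also held a platelet list UMI. Ppbp had 64 UMIs, of which 29 lay in barcodes of no gate.

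Il1a and Il1b are the agonists of the interleukin 1 receptor and Il1rn is its natural antagonist. Each of the 3 led in another gate. Il1a stood at 44.5 CPM in the Ccr2 gate, 185 in C1q, 37 in Cxcr2, 4.69 in Ltf and 6.585 in Mcpt8. Il1a was at 1.27 CPM in Cd3e, 3.51 in Cd79a, 0.826 in Col2a1, 1.34 in Bglap, 0 in Lepr/Adipoq, 0.435 in Dcn/Col3a1 and 7.815 in Cdh5. Il1b stood at 859.8 CPM in the Ccr2 gate, 419 in C1q, 1013 in Cxcr2, 131 in Ltf and 1637 in Mcpt8. Il1b was at 119.6 CPM in Cd3e, 99.2 in Cd79a, 22 in Col2a1, 54.35 in Bglap, 35.1 in Lepr/Adipoq, 51.4 in Dcn/Col3a1 and 158.5 in Cdh5. Il1b was above 850 CPM in basophils, mature neutrophils and monocytes, while macrophages, which led for Il1a, were at 419 CPM and at 102 without the 19 barcodes that also met the Ccr2 gate. Basophils lost the lead for Il1b under a floor of 1600 genes, where they stood at 683 CPM against 840.2 in monocytes, and in barcodes of exactly 1 gate, where mature neutrophils stood at 2703 against 2077. Il1rn stood at 40.4 CPM in the Ccr2 gate, 66.9 in C1q, 147 in Cxcr2, 57.75 in Ltf and 4.115 in Mcpt8. Il1rn was at 3.82 CPM in Cd3e, 11.9 in Cd79a, 5.095 in Col2a1, 15.4 in Bglap, 194 in Lepr/Adipoq, 6.095 in Dcn/Col3a1 and 29 in Cdh5. With each barcode weighing the same, mature neutrophils led for Il1rn with 271 CPM against 254 in marrow stroma. Il1rn was found in 671 of 1398 mature neutrophil barcodes and in 16 of 50 marrow stroma barcodes, all 16 of which also held Cxcl14. The signalling receptor Il1r1 was past the fold in Col2a1 (40.9 CPM), Lepr/Adipoq (99.0) and Dcn/Col3a1 (47.0), whereas the decoy receptor Il1r2 was past it in mature neutrophils (747 CPM against 121 outside).

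Il18 and Il33 belong to the same family. Il18 stood at 9.26 CPM in the Ccr2 gate, 93.2 in C1q, 1.78 in Cxcr2, 0.687 in Ltf and 3.29 in Mcpt8. Il18 was at 3.82 CPM in Cd3e, 3.34 in Cd79a, 9.23 in Col2a1, 1.34 in Bglap, 0 in Lepr/Adipoq, 3.92 in Dcn/Col3a1 and 3.35 in Cdh5. Macrophages exceeded the second gate by a factor of 10.1 for Il18, and 38 of 92 C1q barcodes held it. Chondrocytes followed monocytes closely, with 67 UMIs spread over 57 barcodes. Il18r1 was past the fold in T cells (38.2 CPM) and basophils (52.7), and Il18rap in basophils (166) and immature neutrophils (105), with the same 105 CPM in mature neutrophils just short of the fold. Il33 is an alarmin released from damaged cells and had 75 UMIs. It stood at 9.58 CPM in Dcn/Col3a1 with 22 UMIs in 11 barcodes. The Cd79a gate held more of its UMIs, 59 in 44 barcodes, or 3.34 CPM (3.60 log2 units above the rest, 2.78 to 4.50), although with each barcode weighing the same it was under 4-fold there. Its receptor Il1rl1 was past the fold in basophils alone among the 12 gates, at 74.1 CPM against 3.24 outside.

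Tnf, the founding member of its family, and Tnfsf9, the 4-1BB ligand that costimulates T cells, both led in monocytes. Tnf stood at 556 CPM in the Ccr2 gate, 434 in C1q, 229.9 in Cxcr2, 87.6 in Ltf and 141 in Mcpt8. Tnf was at 20.35 CPM in Cd3e, 42.9 in Cd79a, 13.8 in Col2a1, 28.85 in Bglap, 6.19 in Lepr/Adipoq, 27.9 in Dcn/Col3a1 and 74.8 in Cdh5. Tnf was widespread in myeloid cells, in 67.9% of monocyte (median 8313 UMIs), 65.2% of macrophage (7412) and 48.2% of mature neutrophil barcodes (4887), against 3.07% of Cd79a barcodes of no other gate (3046). Thinned to 1000 UMIs these shares were 31.6%, 27.1%, 22.4% and 0.976%. Tnfsf9 stood at 189.5 CPM in the Ccr2 gate, 53.8 in C1q, 7.12 in Cxcr2, 4.865 in Ltf and 11.5 in Mcpt8. Tnfsf9 was at 14 CPM in Cd3e, 9.12 in Cd79a, 4.27 in Col2a1, 0.671 in Bglap, 4.13 in Lepr/Adipoq, 9.14 in Dcn/Col3a1 and 15.6 in Cdh5. Of Tnfsf9 UMIs, 71.05% were in Ccr2 barcodes of no other gate, and its level in C1q was 16.0 CPM without the 19 barcodes that also met the Ccr2 gate. With the highest other gate so reduced as the reference it alone of the members stayed past 4-fold in monocytes, whereas over the whole gates the ratio was 3.525. Tnfrsf9, its receptor, was past the fold in T cells at 81.4 CPM against 2.78 outside.

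Il4 and Il13 are the type 2 cytokines, with genes that lie side by side. The Mcpt8 gate led for both, at 45.3 CPM (55 of 64 UMIs) for Il4 and 69.1 CPM (84 of 173 UMIs) for Il13. They were seen in 26 and 24 of 93 basophil barcodes and together in 9. One barcode held 44.0% of the Il13 UMIs of the gate, without which the level was 38.8 CPM, and a floor of 1600 genes gave 19.8. Another 43.9% of Il13 UMIs lay in 12 barcodes of no gate. The receptor chain Il4ra was past the fold in T cells (135 CPM) and Il13ra1 in monocytes (18.3), macrophages (25.1) and Dcn/Col3a1 barcodes (21.8). Il15, which sustains NK cells and memory T cells, led in basophils. Il15 stood at 22.4 CPM in the Ccr2 gate, 8.36 in C1q, 33.1 in Cxcr2, 22.3 in Ltf and 72.4 in Mcpt8. Il15 was at 1.27 CPM in Cd3e, 7.93 in Cd79a, 3.305 in Col2a1, 2.68 in Bglap, 18.6 in Lepr/Adipoq, 6.53 in Dcn/Col3a1 and 11.2 in Cdh5. The basophil level was 2.19 times that of mature neutrophils, the second gate. Il15ra was past the fold in chondrocytes at 25.5 CPM against 2.02 outside.

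Il6, Osm and Lif signal through the shared receptor chain Il6st (gp130). Their sources differed, with basophils and monocytes for Il6, myeloid cells for Osm and stroma and cartilage for Lif. Il6 stood at 101 CPM in the Ccr2 gate, 5.97 in C1q, 7.02 in Cxcr2, 2.12 in Ltf and 267 in Mcpt8. Il6 was at 0 CPM in Cd3e, 3.74 in Cd79a, 6.75 in Col2a1, 1.34 in Bglap, 16.5 in Lepr/Adipoq, 6.095 in Dcn/Col3a1 and 2.23 in Cdh5. Il6 was seen in 47 of 93 basophil and 224 of 845 monocyte barcodes. Osm stood at 185 CPM in the Ccr2 gate, 192 in C1q, 135 in Cxcr2, 61.6 in Ltf and 162 in Mcpt8. Osm was at 8.9 CPM in Cd3e, 16.5 in Cd79a, 2.89 in Col2a1, 4.03 in Bglap, 4.13 in Lepr/Adipoq, 3.05 in Dcn/Col3a1 and 17.9 in Cdh5. Osm in macrophages, monocytes, basophils and mature neutrophils was between 135 and 192 CPM, and which of these led depended on the setting. Lif stood at 11.4 CPM in the Ccr2 gate, 0 in C1q, 4.15 in Cxcr2, 0.916 in Ltf and 11.5 in Mcpt8. Lif was at 1.27 CPM in Cd3e, 1.36 in Cd79a, 39.2 in Col2a1, 22.8 in Bglap, 78.4 in Lepr/Adipoq, 19.6 in Dcn/Col3a1 and 1.12 in Cdh5. In marrow stroma 68.4% of the 38 Lif UMIs were in 1 barcode, without which chondrocytes led with 32.5 CPM. In chondrocytes the 285 UMIs were in 49 of 358 barcodes.

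**Figure D3:**
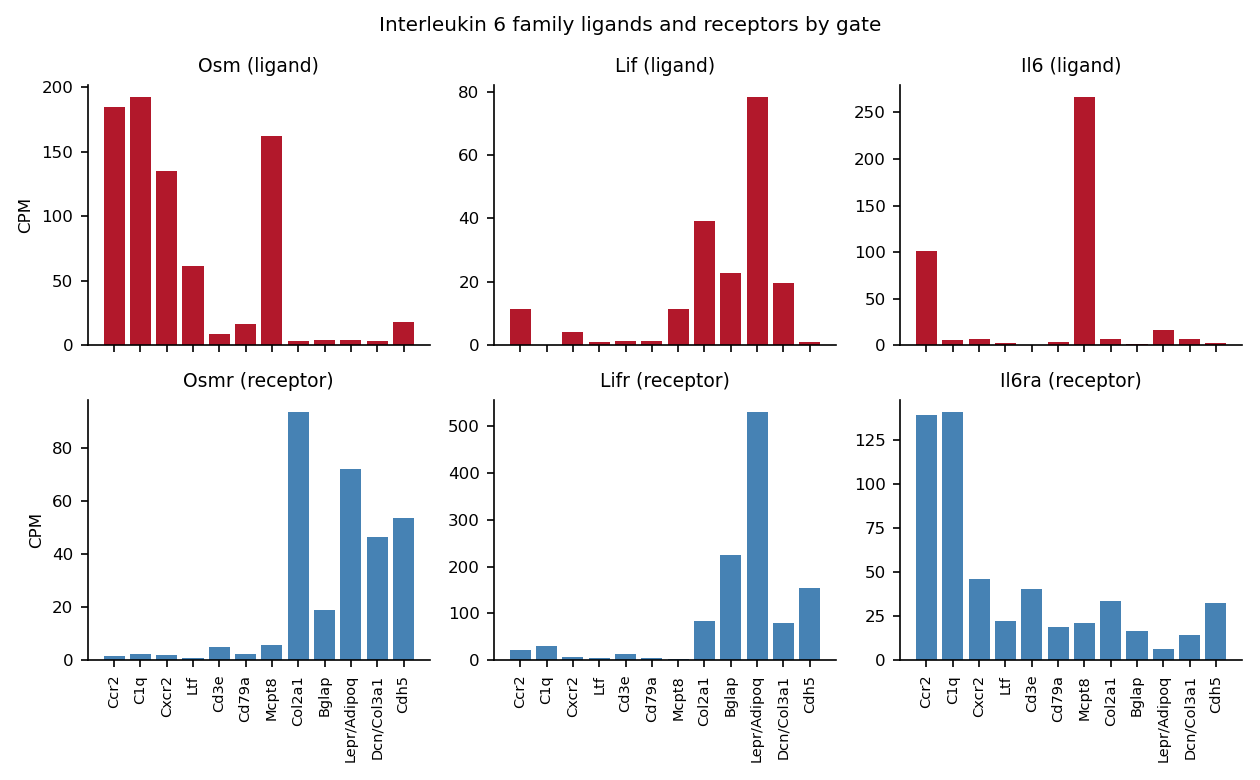
Level in CPM (y axis) of the ligands Osm, Lif and Il6 (upper row) and the receptor chains Osmr, Lifr and Il6ra (lower row) in each gate (x axis), with 1 pooled value per bar and no error bar. Osm is high in the myeloid gates and Osmr in Col2a1, Lepr/Adipoq, Dcn/Col3a1 and Cdh5, with Bglap lower at 18.8 CPM and not past 4-fold. In all the skeletal and vessel gates Osm is at 2.89 to 17.9 CPM.

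Osmr, the Osm receptor chain, stood at 93.5 CPM in chondrocytes, 72.2 in marrow stroma, 53.6 in endothelium, 46.6 in Dcn/Col3a1 and 18.8 in osteoblasts, and between 0.973 and 5.76 in the blood gates. Lifr was past the fold in all 5 skeletal and vessel gates, led by marrow stroma at 530.3 CPM and osteoblasts at 224. Il6st was past it in Lepr/Adipoq (314), Dcn/Col3a1 (133) and Cdh5 (404). Il6ra was past the fold in monocytes (139 against 25.6 outside) and as high in macrophages (141), where it was just short of the fold.

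Il10 and Tgfb1 are mainly anti-inflammatory. Il10 stood at 16.1 CPM in the Ccr2 gate, 183 in C1q, 0.8895 in Cxcr2, 0.973 in Ltf and 0 in Mcpt8. Il10 was at 1.27 CPM in Cd3e, 1.585 in Cd79a, 0.551 in Col2a1, 0 in Bglap, 0 in Lepr/Adipoq, 1.31 in Dcn/Col3a1 and 1.12 in Cdh5. Il10 was 11.35 times higher in macrophages than in monocytes, the next gate, though both held 153 UMIs. Of 92 macrophage barcodes 24 held it. Il10ra was past the fold in the same 2 gates, at 101.5 CPM in macrophages and 69.9 in monocytes. Tgfb1 stood at 219 CPM in the Ccr2 gate, 321 in C1q, 84.3 in Cxcr2, 74.7 in Ltf and 212 in Mcpt8. Tgfb1 was at 172 CPM in Cd3e, 239 in Cd79a, 121 in Col2a1, 122 in Bglap, 146.5 in Lepr/Adipoq, 159 in Dcn/Col3a1 and 249 in Cdh5. Tgfb1 was the flattest member, with 2.105 log2 units between the highest and the lowest gate, against 4.985 for Cxcl2, the next flattest of those seen in every gate. No gate was past 4-fold. The receptor Tgfbr1 was past it in macrophages (179 CPM) and the coreceptor Tgfbr3 in Col2a1, Lepr/Adipoq, Dcn/Col3a1 and Cdh5, at 91.0, 268, 130 and 78.2 CPM.

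To ask how monocytes and macrophages of the marrow differ, the Ccr2 and C1q gates were compared directly without the 19 barcodes that met both. The Ccr2 gate alone has a ceiling on S100a8, and S100a8 and S100a9 summed to 669 CPM in it against 12910 in C1q, whose part in the differences was not tested. Of 27 members with at least 20 UMIs in the pair, 4 were at least 4-fold higher in monocytes, against 1.87% of all genes, and 7 in macrophages, against 5.01%. Il6 was at 103 CPM in monocytes against 4.80 (log2 ratio 4.42, 2.87 to 6.70), Tnfsf9 at 190.1 against 16.0 (3.57, 2.69 to 4.63), Il1b at 848.5 against 102 (3.05, 2.70 to 3.43) and Ccl5 at 343 against 60.8 (2.50, 2.04 to 3.00). Ccl5 was seen in only 84 of these 826 Ccr2 barcodes. The NK cell list stood at 191 CPM in the whole Ccr2 gate against 21.5 in C1q, and its part in the Ccl5 difference was not tested. In the opposite direction Ccl7 was at 582 CPM in macrophages against 1.18 (log2 ratio -8.94, -9.96 to -8.09) and Pf4 at 530 against 1.94 (-8.09, -8.87 to -7.41). Il10, Il18, Cxcl16, Ccl4 and Il1a followed with log2 ratios between -3.89 and -2.34. Cxcl2, Osm, Tnf, Ccl3 and Il1rn lay within 1 log2 unit of parity, as did Cxcl10 and Tgfb1.

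**Figure D4:**
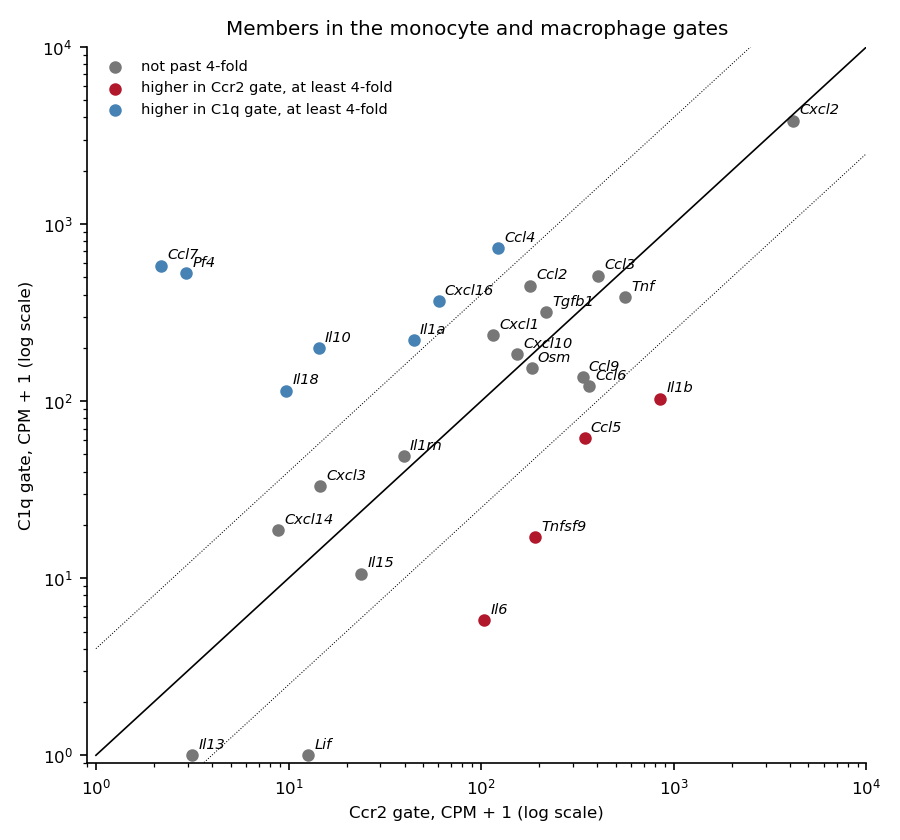
Level of 27 members in Ccr2 barcodes (x axis) and C1q barcodes (y axis), both as CPM + 1 on log scales, with the solid line at equality and dotted lines at 4-fold. The 7 members above the upper dotted line include Ccl7 and Pf4, and Lif lies below the lower line but is not counted because 3 UMIs in the C1q gate would bring it within 4-fold.

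Neutrophil maturation was followed from Ltf, a granule gene of immature neutrophils, to Cxcr2. Without the 713 barcodes of both gates, 17 of 27 members were at least 4-fold higher in Cxcr2 barcodes, against 8.25% of all genes, and 1 was higher in Ltf barcodes, against 0.802%. The median log2 ratio of Cxcr2 over Ltf was 2.36 over the members and 0.362 over all genes. Il1b was at 2212 CPM in Cxcr2 barcodes against 73.8 in Ltf barcodes, Ccl6 at 787 against 29.2, Cxcl2 at 6490 against 455, Ccl4 at 372 against 26.2 and Il1a at 86.7 against 4.68. The 1 exception, Ccl7, rested on 39 and 2 UMIs, with 89.7% of the Ltf gate's 39 UMIs in 1 barcode. Some of the 17 also rested on few Cxcr2 barcodes, with Pf4 in 9, Il13 in 8 and Cxcl14 in 6. S100a8 and S100a9 summed to 93170 CPM in these Cxcr2 barcodes against 223600 in the Ltf barcodes, whose part in the differences was not tested. Cxcl10, Tgfb1 and Ccl2 lay within 1 log2 unit of parity. The Cxcr2 barcodes were shallower, with a median of 3391 UMIs against 8666, and the part of depth was not tested for levels. With a floor of 1600 genes, 9 members were at least 4-fold higher in Cxcr2.

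Barcodes that met both gates were intermediate for most of the genes examined. Il1b stood at 73.8 CPM in Ltf barcodes (68.8 to 78.9), 236 in barcodes of both (224 to 249) and 2212 in Cxcr2 barcodes (2166 to 2258). Il1rn was at 39.2, 92.03 and 231 CPM in the same order, and Osm at 48.9, 85.2 and 211. Ccl3 and Il1a differed little between the first 2 classes, with 86.0 and 83.9 CPM of Ccl3 and 4.68 and 4.72 of Il1a, before the rise in Cxcr2 barcodes.

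**Figure D5:**
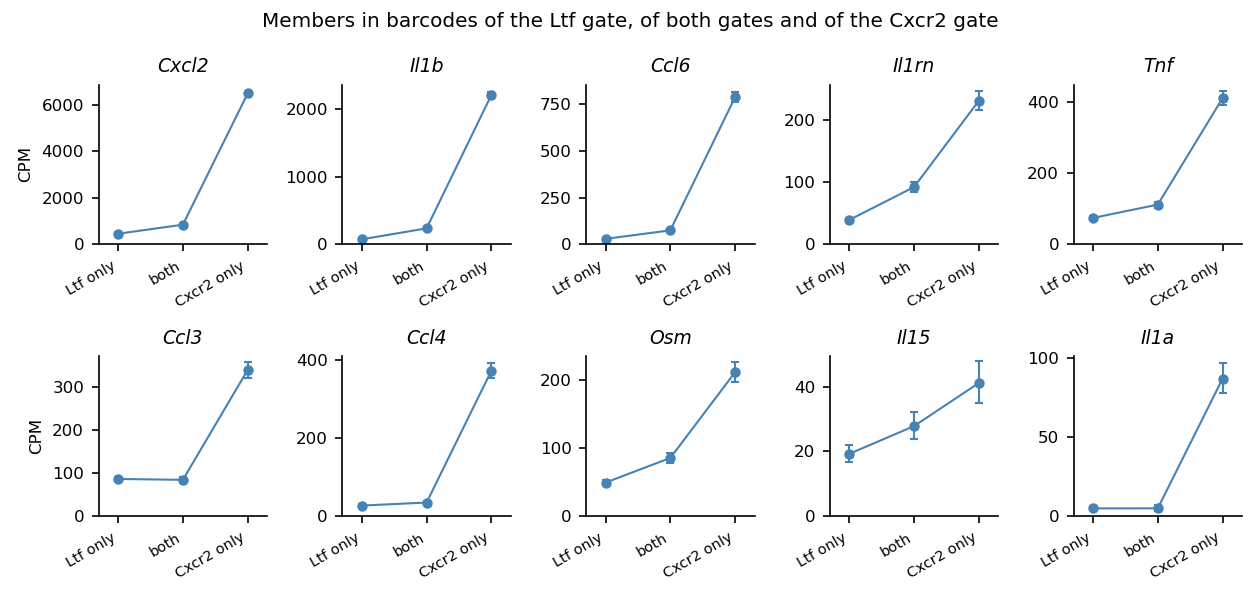
Level in CPM (y axis, from 0) of 10 members in barcodes of the Ltf gate only (1065), of both gates (713) and of the Cxcr2 gate only (685), with 95% Poisson intervals as bars. The Cxcr2-only class is the highest in every panel, from 41.2 CPM for Il15 to 6490 for Cxcl2.

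Marrow stroma was next compared with osteoblasts, which share a lineage. Of 17 members, 6 were at least 4-fold higher in Lepr/Adipoq, against 8.18% of all genes, and 2 in Bglap, against 2.44%. Cxcl14 was at 1687 CPM in stroma against 15.1 in osteoblasts (log2 ratio 6.81, 6.20 to 7.49). Il1rn was at 208 against 15.8 (3.72, 3.05 to 4.44), Cxcl1 at 185.5 against 18.5 (3.325, 2.68 to 4.01) and Ccl7 at 28.7 against 5.485, the latter from 1 barcode. Cxcl10 and Cxcl13, also higher in stroma, rested mainly on 1 barcode each. Ccl5 and Tnf were higher in Bglap barcodes, from 4 and 6 barcodes. The summed level of S100a8 and S100a9, abundant neutrophil genes, was 6718 CPM in these Bglap barcodes against 2516 in the Lepr/Adipoq barcodes, and its part in the difference was not tested. Beside the 26 Bglap barcodes in the Col2a1 gate, 12 of the 58 also met the Dcn/Col3a1 gate, 6 Cxcr2, 4 Cd79a, 3 Ltf and 2 Cd3e. Against Dcn/Col3a1 barcodes, 7 of 22 members were higher in marrow stroma (4.45% of all genes), namely Ccl2, Ccl7, Cxcl10, Cxcl13, Cxcl14, Il1rn and Lif. In the other direction Ccl5 was higher in Dcn/Col3a1 (1.61% of all genes), with 97.0% of its UMIs in that gate in 1 barcode. Cxcl1 and Cxcl2 lay within 1 log2 unit of parity between both.

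To see whether descendants of hypertrophic chondrocytes differed, the 107 barcodes of the Bglap and Lepr/Adipoq gates were split at 14 UMIs of WPRE, the viral element carried by the tdTomato transcript, into 30 above it and 77 others. Both classes were of mixed type, with 13 Lepr/Adipoq and 17 Bglap barcodes above the threshold and 37 and 41 among the others. Of 17 members, 3 were at least 4-fold higher above the threshold, against 0.499% of all genes, and 4 lower, against 2.51%. Cxcl14 was at 894 CPM above it against 216 (log2 ratio 2.05, 1.84 to 2.26), in 13 and 24 barcodes. This was only just past 4-fold, and 27.5% of the Cxcl14 UMIs above the threshold were in 1 barcode. Ccl5 and Cxcl13 rested on 2 and 1 barcodes. Not all of these 3 stayed past 4-fold without the barcode holding most UMIs of a gene. Cxcl2 was at 7.40 CPM against 268, Il1b at 3.70 against 68.4, Tnf at 0 against 32.8 and Lif at 0 against 51.3, where the upper bounds of the log2 ratio were -2.205 for Tnf and -2.87 for Lif. The summed level of S100a8 and S100a9 was 329.5 CPM above the threshold and 7676 in the others, and its part in the lower levels was not tested.

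Several members are neighbours in the genome, and their leading gates are set beside their positions (coordinates in GRCm38, GENCODE M21). On chromosome 5, Cxcl5 (90759360 to 90761624), Ppbp (90768518 to 90770063), Pf4 (90772435 to 90773383), Cxcl3 (90786103 to 90789600), Cxcl1 (90891241 to 90893115) and Cxcl2 (90903871 to 90905938) follow each other on the plus strand. Of these, Pf4 and Cxcl3 led in macrophages, Cxcl1 in Dcn/Col3a1 and Cxcl2 in monocytes, but the lead of Cxcl2 passed to mature neutrophils in the settings given above, and without the top barcode Cxcl1 led in macrophages and Cxcl3 in monocytes (10.01 against 9.66 CPM). On chromosome 11, Ccl2 (82035571 to 82037453) and Ccl7 (82045712 to 82047525) both led in macrophages. Farther along that chromosome, Ccl5 (83525778 to 83530518) led in T cells, Ccl9 (83572919 to 83578636) in basophils, Ccl6 (83587882 to 83593087) in monocytes and Ccl3 (83647844 to 83649355) and Ccl4 (83662584 to 83664683) in basophils. Osm (4236420 to 4241026) and Lif (4257557 to 4272514), also neighbours on chromosome 11, led in macrophages and in marrow stroma. The leads of Ccl4, Ccl6, Osm and Lif also passed to another gate in at least 1 setting. Il4 (53602982 to 53618669) and Il13 (53631324 to 53634702), on the minus strand of the same chromosome, both led in basophils. All 37 are annotated as protein-coding genes.

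Of a list of 37 chemokine and cytokine receptor genes, 9 were past the fold in Dcn/Col3a1 (12.6% of all genes), 7 in Col2a1 (14.9%), 7 in Lepr/Adipoq (14.9%), 6 in Cdh5 (9.77%) and 2 in Bglap (8.88%). In blood gates it was 7 in Cd3e (3.68%), 5 in Ccr2 (2.58%), 5 in C1q (5.69%), 3 in Cxcr2 (1.35%), 3 in Mcpt8 (2.64%), 2 in Cd79a (3.82%) and 1 in Ltf (2.08%). The shares in Col2a1, Lepr/Adipoq, Bglap, Cd79a and Ltf were near or below those of all genes. Among the gates, the scavenging receptors were past the fold in skeletal or vessel gates only. Ackr4 stood at 130.0 CPM in marrow stroma (0.758 outside) and Ackr3 at 114 in Dcn/Col3a1 and 79.2 in Col2a1. Ackr2 was at 34.8 CPM in Dcn/Col3a1 and Ackr1 at 71.4 in endothelium. Of the 509 Ackr1 UMIs in kept barcodes, however, only 64 were in Cdh5 and 20 in Lepr/Adipoq, and most lay in barcodes of no gate. Ccr9 was past the fold in the Cdh5 gate, at 433 CPM in 32 barcodes, beside the 34 barcodes with Siglech noted above.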

How the data were processed

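The deposited file is a gene by barcode matrix of UMI counts. The authors digested tibial bone with some growth plate, removed the first suspensions, which held most blood cells, ran the 10x Chromium platform and aligned reads to mm10 with Cell Ranger 3.1.0; Seurat 3 is also named in the submitters' notes. No normalisation had been applied to these counts, and 0 columns of other samples were present. Barcodes with at least 800 genes were kept. Gates were Ccr2 at least 1 UMI with S100a8 below 100 per 10000 UMIs, C1qa plus C1qb at least 5, Cxcr2, Cd3e and Cdh5 at least 1, Ltf at least 20 per 10000, Cd79a at least 3, Mcpt8 at least 2, Col2a1 at least 10, Bglap at least 20, Lepr plus Adipoq at least 2, and Dcn and Col3a1 at least 3 each.

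Levels are UMIs summed over a gate per 1000000 UMIs with exact Poisson intervals, ratios have exact conditional intervals, and shares of barcodes were also computed after thinning to 1000 UMIs. All intervals cover counting error only. Members and lists were chosen with earlier results of these data known. Values in every gate are given for members with at least 200 UMIs, the leading gate for those with 20 to 199, and totals below that. Receptors past 4-fold are named, apart from a gene that is not reported here. The fold call and the ratio intervals were checked on Poisson counts simulated for the Ccr2 gate, and the other steps were not simulated. All steps were run with Python 3.11.15, numpy 2.4.6, scipy 1.17.1 and pandas 2.3.3. Alternatives changed the gene floor, gate thresholds, mitochondrial limit, fold, UMI minimum, reference and weighting.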

Additional observations from a re-analysis of the deposited data

How the results depend on the processing

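No paired analysis was possible because all values come from 1 pool without replicates. Of 218 alternative counts of members past the fold, 163 stayed within 1.5 times the reported count and 55 did not, and of 261 alternative levels 171 moved by less than their counting interval and 90 by more. The leading gate was the same in all 7 settings examined for 24 of 35 members, and not for Ccl4, Ccl6, Cxcl1, Cxcl2, Cxcl3, Cxcl10, Ppbp, Il1b, Il1rn, Osm and Lif. The counts that moved are given by setting, and the cause was not tested. With a floor of 1600 genes, the count was 0 (Cxcr2 gate, reported 1), 9 (higher in Cxcr2 than Ltf, reported 17), 0 (higher in Ltf than Cxcr2, reported 1) and 2 (higher in Dcn/Col3a1 than Lepr/Adipoq, reported 1). With no gene floor, the count was 3 (Cxcr2 gate, reported 1) and 5 (Col2a1 gate, reported 3). With the gate thresholds doubled, the count was 10 (higher in Cxcr2 than Ltf, reported 17) and 2 (higher in Dcn/Col3a1 than Lepr/Adipoq, reported 1). Among barcodes that meet exactly 1 gate, the count was 8 (Cxcr2 gate, reported 1) and 2 (Dcn/Col3a1 gate, reported 5). At 2-fold, the count was 19 (Ccr2 gate, reported 10), 20 (C1q gate, reported 12), 8 (Cxcr2 gate, reported 1), 6 (Col2a1 gate, reported 3), 1 (Bglap gate, reported 0), 14 (Lepr/Adipoq gate, reported 9), 6 (Cdh5 gate, reported 3), 8 (higher in Ccr2 than C1q, reported 4), 11 (higher in C1q than Ccr2, reported 7), 5 (higher in Bglap than Lepr/Adipoq, reported 2), 4 (higher in Dcn/Col3a1 than Lepr/Adipoq, reported 1) and 9 (WPRE class lower above 14 WPRE UMIs, reported 4). At 8-fold, the count was 4 (Ccr2 gate, reported 10), 0 (Cxcr2 gate, reported 1), 3 (Dcn/Col3a1 gate, reported 5), 1 (Cdh5 gate, reported 3), 4 (higher in C1q than Ccr2, reported 7), 7 (higher in Cxcr2 than Ltf, reported 17), 0 (higher in Ltf than Cxcr2, reported 1), 1 (higher in Bglap than Lepr/Adipoq, reported 2) and 0 (higher in Dcn/Col3a1 than Lepr/Adipoq, reported 1). With at least 50 UMIs asked of a gene, the count was 0 (higher in Ltf than Cxcr2, reported 1), 1 (higher in Bglap than Lepr/Adipoq, reported 2) and 4 (higher in Lepr/Adipoq than Dcn/Col3a1, reported 7). With the highest other gate as reference, the count was 1 (Ccr2 gate, reported 10), 6 (C1q gate, reported 12), 0 (Cxcr2 gate, reported 1), 0 (Cd79a gate, reported 1), 2 (Mcpt8 gate, reported 8), 0 (Col2a1 gate, reported 3), 3 (Lepr/Adipoq gate, reported 9), 0 (Dcn/Col3a1 gate, reported 5) and 0 (Cdh5 gate, reported 3). With each barcode weighing the same, the count was 3 (Cxcr2 gate, reported 1), 0 (Cd79a gate, reported 1), 0 (higher in Ltf than Cxcr2, reported 1), 1 (higher in Bglap than Lepr/Adipoq, reported 2), 0 (higher in Dcn/Col3a1 than Lepr/Adipoq, reported 1) and 1 (WPRE class higher above 14 WPRE UMIs, reported 3). Without the barcode holding most UMIs of a gene, the count was 5 (Lepr/Adipoq gate, reported 9), 0 (Cdh5 gate, reported 3), 0 (higher in Ltf than Cxcr2, reported 1), 1 (higher in Bglap than Lepr/Adipoq, reported 2), 0 (higher in Dcn/Col3a1 than Lepr/Adipoq, reported 1) and 1 (WPRE class higher above 14 WPRE UMIs, reported 3). The alternatives of Cd79a barcodes of no other gate as background and of the Ccr2 gate without Mcpt8-gated barcodes were chosen after seeing the data. Small gates of 50 to 98 barcodes and genes under 200 UMIs limit what depth can show.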

Other observations

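Pairs of members in the same barcodes are given as counts, with no expected value and no scaling for depth. In the 92 C1q barcodes Ccl7 was in 28, Pf4 in 53 and both in 25, while Ccl7 and Ccl2 (48 barcodes) were together in 23 and Ccl7 and Il10 (24 barcodes) in 10. In the 93 Mcpt8 barcodes Ccl3 was in 77, Ccl4 in 66 and both in 61, while Il4 was in 26, Il13 in 24 and both in 9. In the 1398 Cxcr2 barcodes Ccl3 was in 290, Ccl4 in 174 and both in 95, and Il1b was in 776, Cxcl2 in 963 and both in 686. In the 845 Ccr2 barcodes Tnf was in 574, Cxcl2 in 614 and both in 501. In the 173 Dcn/Col3a1 barcodes Cxcl1 was in 49, Cxcl2 in 40 and both in 13.

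Within the Cd79a gate, Il33 was followed by stage markers of B cells. It had 39 UMIs in 32 of 1533 barcodes with Vpreb3, a gene of precursor B cells, but neither Dntt nor Ms4a1 (4.06 CPM, 2.89 to 5.55). Barcodes with Ms4a1, which encodes CD20, but no Dntt had 16 UMIs in 9 of 1193 (2.85 CPM, 1.63 to 4.63), and barcodes with Dntt had 4 UMIs in 3 of 175 (2.06 CPM, 0.562 to 5.285). As shares of barcodes these were 2.09% (1.43 to 2.93), 0.754% (0.3455 to 1.43) and 1.71% (0.355 to 4.93), at median depths of 3261, 3037 and 8624 UMIs. The intervals of the Vpreb3 and Ms4a1 classes overlap for the level and not for the share, they cover counting error only, and the difference was not tested. Tgfb1 stood at 221 CPM in the Vpreb3 class (212 to 231), 279 in the Ms4a1 class (265 to 293) and 212 in the Dntt class (192 to 234).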
